A study of Mus musculus with 2 samples.

Results

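The cells described here were 154 mast cells with high levels of Mcpt1, which encodes mouse mast cell protease 1, the chymase of mucosal mast cells. They were picked from explant cultures of the mouse embryo and yolk sac by their own transcript counts. A cell was kept when 1000 to 5000 genes were detected in it and at most 5% of its unique molecular identifiers (UMIs, counted molecules) came from mitochondrial genes. It was a member when at least 40 of every 10000 UMIs were Cpa3, the mast cell carboxypeptidase, and at least 20 of every 10000 were Mcpt1. Of 5158 cells that passed the quality limits, 4146 reached the Cpa3 threshold and 154 of those also reached the Mcpt1 threshold.

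C57/BL6 concepti at E8.5 (5 to 7 pairs of somites) were separated into the embryo, that is its intraembryonic tissues, and the yolk sac. Both tissues were cultured as explants (Em-Ex and YS-Ex) until day 10 (9 to 10 days in the labels) at an air-liquid interface with SCF, IL-3 and FLT3 ligand, each at 100 ng/ml. The explants were dissociated with collagenase, and CD31+CD45+c-Kit+CD41- cells of pooled concepti were sorted into 1 droplet single-cell library per tissue. The labels name no transgene or deletion for either tissue, and SCF and IL-3, both mast cell growth factors, were present in both cultures. With 1 library for each tissue no difference could be tested against replicates, so all ratios below describe these libraries, and each interval is a 95% interval that covers counting error only. Tissue and library cannot be told apart.

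Mast cells fill their granules with proteases, histamine and proteoglycan and carry the high-affinity IgE receptor and the SCF receptor Kit. In mice, mucosal mast cells of the gut epithelium are known for the chymases Mcpt1 and Mcpt2, whereas connective tissue mast cells of the skin and peritoneum are known for the chymases Mcpt4 and Cma1, the tryptases Tpsb2 and Tpsab1, Cpa3 and heparin. The chymase genes lie side by side on chromosome 14, and TGF-beta is known to raise Mcpt1 in cultured mast cells.

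The 4 chymase genes that the comparison turns on occupied a stretch of 120860 bases with 8 annotated genes in RefSeq GRCm38.p6, with Cma1 at chr14:55941451-55944675, Mcpt1 at chr14:56017964-56020391, Mcpt2 at chr14:56021584-56044635 and Mcpt4 at chr14:56059744-56062310. Only 1192 bases separated Mcpt1 from Mcpt2. The 250 bases before the start of Mcpt1, Mcpt4 and Cma1 are shown because the first of these transcripts chose the cells and the other 2 stood on opposite sides of the 2-fold line in Em-Ex. No promoter window was available for Mcpt2, so it could not be searched. Capitals mark 2 motifs. CAGAC is the short sequence bound by Smad factors. TGATAA is of the type bound by GATA factors. The windows are chr14:56017714-56017963 on the plus strand for Mcpt1, chr14:56062311-56062560 on the minus strand for Mcpt4 and chr14:55944676-55944925 on the minus strand for Cma1, each printed 5′ to 3′.
Mcpt1: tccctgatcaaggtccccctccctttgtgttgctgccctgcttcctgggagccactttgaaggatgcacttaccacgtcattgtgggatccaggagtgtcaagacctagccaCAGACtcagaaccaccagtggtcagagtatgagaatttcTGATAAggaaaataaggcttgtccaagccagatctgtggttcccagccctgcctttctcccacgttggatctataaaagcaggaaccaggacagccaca
Mcpt4: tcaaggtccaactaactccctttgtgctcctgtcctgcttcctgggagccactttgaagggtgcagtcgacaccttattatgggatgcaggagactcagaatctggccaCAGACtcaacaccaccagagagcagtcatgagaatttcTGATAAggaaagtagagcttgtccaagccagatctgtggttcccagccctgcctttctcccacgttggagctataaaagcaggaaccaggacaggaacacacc
Cma1: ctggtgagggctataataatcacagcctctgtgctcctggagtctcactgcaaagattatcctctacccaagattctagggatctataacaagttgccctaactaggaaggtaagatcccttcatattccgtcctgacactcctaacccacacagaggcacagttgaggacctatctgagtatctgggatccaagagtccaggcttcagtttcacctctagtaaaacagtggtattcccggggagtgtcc
Both motifs stood at nearly the same place in the first pair, with CAGAC beginning 138 and 141 bases and TGATAA 99 and 103 bases before the start of Mcpt1 and Mcpt4. The Cma1 window held neither of them on either strand. The Mcpt1 and Mcpt4 windows were 81.9% identical in a global alignment, against 51.3% for Mcpt1 with Cma1 and 54.1% for Mcpt4 with Cma1. CAGAC occurred in 42.2% and TGATAA in 7.94% of 32851 promoter windows of this length, so a match describes the letters and not a bound site. TGATAA was added to the search after the windows had been seen, and the other sequences searched, AGATAA (9.99% of windows), CATGTG (12.3%), CACGTG (6.02%) and GTCTAGAC (0.167%), were in none of the 3 windows.

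Embryo explants held more of these cells than yolk sac explants. They made up 123 of 2200 Cpa3-high cells in Em-Ex, or 5.59% (4.67 to 6.63%, exact Clopper-Pearson interval), and 31 of 1946 in YS-Ex, or 1.59% (1.08 to 2.25%). Of all cells past the quality limits they were 4.01% in the Em-Ex library of 3071 cells and 1.49% in the YS-Ex library of 2087, so the order did not depend on the denominator. Members carried 1114015 UMIs in Em-Ex and 314374 in YS-Ex in total, with 4569 to 24409 and 3765 to 30953 UMIs per cell. Their median of 8022 UMIs in Em-Ex and 8364 in YS-Ex lay under that of the other Cpa3-high cells (11453 and 11845), the median share of mitochondrial UMIs was 3.72% and 3.82% in members against 3.16% and 3.61%, and the part of these gaps in the results was not tested. A floor of 3 UMIs corresponded to 2.69 counts per 1000000 (CPM) in the Em-Ex members and 9.54 CPM in the YS-Ex members. Barcode sequences shared between the libraries numbered 1 among Em-Ex members and 0 among YS-Ex members.

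Most mast cells gave no Mcpt1 count. No Mcpt1 UMI was found in 1608 Cpa3-high cells of Em-Ex (73.1%) and 1780 of YS-Ex (91.5%). Cells lay close to the threshold on either side. In Em-Ex 13 cells had 15 to under 20 and 14 had 20 to under 25 Mcpt1 UMIs per 10000, and in YS-Ex the numbers were 7 and 3. The highest cell left out had 19.4 in Em-Ex and 17.9 in YS-Ex, and the lowest member had 20.1 and 23.6, so that YS-Ex had no cell between its values. At the upper end 26 Em-Ex cells (1.18%) and 4 YS-Ex cells (0.206%) had 200 or more. The Mcpt1-high cells are therefore treated as a range of the Mcpt1 level, and whether they form a cluster of their own was not tested. Beyond the Cpa3 threshold, 45 Em-Ex and 7 YS-Ex cells reached the Mcpt1 threshold with too little Cpa3, at a median of 25.4 and 13.4 Cpa3 UMIs per 10000. Within the members, 25 Em-Ex and 8 YS-Ex cells had 40 to under 60 Cpa3 UMIs per 10000, and the lowest had 40.4 and 41.7.

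**Figure D1:**
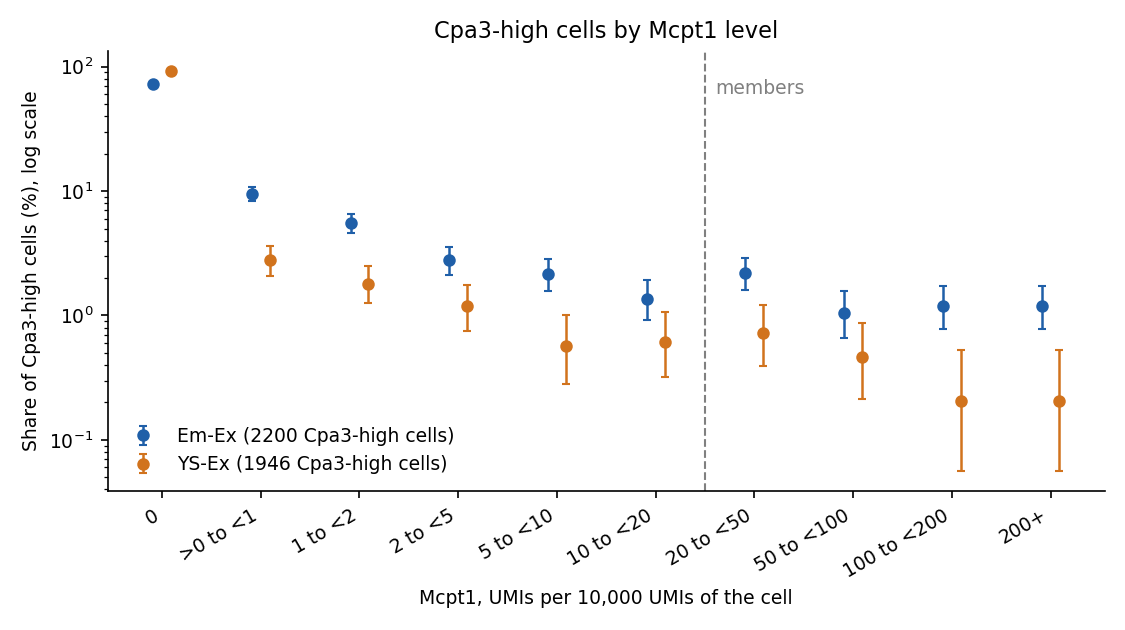
Share of Cpa3-high cells (percent, log axis) in each range of Mcpt1 UMIs per 10000, with exact Clopper-Pearson bars, for the 2200 Em-Ex and 1946 YS-Ex cells and a dashed line at the threshold of 20. Most cells have no Mcpt1 UMI, the shares are low on both sides of the threshold, with 1.36% and 0.617% at 10 to under 20, and Em-Ex lies above YS-Ex in each range past it, from 2.18% against 0.719% at 20 to under 50 to 1.18% against 0.206% at 200 or more.

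The label of mast cells held in both libraries, and of the 4 mucosal markers, leaving out Mcpt1, which chose the cells, Mcpt2 and Il1r2 stood higher in both and Clec4a2 stood higher in Em-Ex, with no ratio possible in YS-Ex. The summed mast cell identity markers reached 15139 CPM in Em-Ex members and 14381 CPM in YS-Ex members. The other Cpa3-high cells were near that, at 16644 and 16091 CPM, and cells under the Cpa3 threshold were at 4208 and 8127 CPM. UMIs of this list were in each member, but also in 871 of 871 and 140 of 141 cells under that threshold. Their presence alone therefore does not mark a mast cell. Of this list, Fcer1a had 0 UMIs in YS-Ex members. Clec4a2 had 0 UMIs in the 31 YS-Ex members. Connective tissue proteases were also present, and in YS-Ex 2 of them, Mcpt4 and Cma2, were past 2-fold higher in members and none lower. Mcpt1 and Cpa3 chose the cells, so their levels are given as description: Mcpt1 was at 13731 CPM in members against 53.9 CPM in other Cpa3-high cells of Em-Ex and at 8325 against 16.1 CPM in YS-Ex, while Cpa3 was at 11518 against 13070 CPM and 9556 against 17503 CPM.

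Across all genes with at least 10 CPM in members or in other Cpa3-high cells, few stood 2-fold above. Members were at least 2-fold higher for 2.08% of the 6506 Em-Ex genes and 4.12% of the 7043 YS-Ex genes, and at least 2-fold lower for 5.87% and 11.0%. In both libraries at once 39 of 6182 genes (0.631%) were higher and 89 (1.44%) were lower. Among these 6182 genes, the shared higher ones made up 41.5% of the 94 higher in Em-Ex and 23.2% of the 168 higher in YS-Ex, and 14 and 12 genes were 2-fold apart in opposite directions. Because the smaller group is thinly counted, the 95% interval of the ratio left out 1 for all 135 higher genes of Em-Ex but for only 159 of 290 in YS-Ex. The counts for gene groups below are to be read against these shares.

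**Figure D2:**
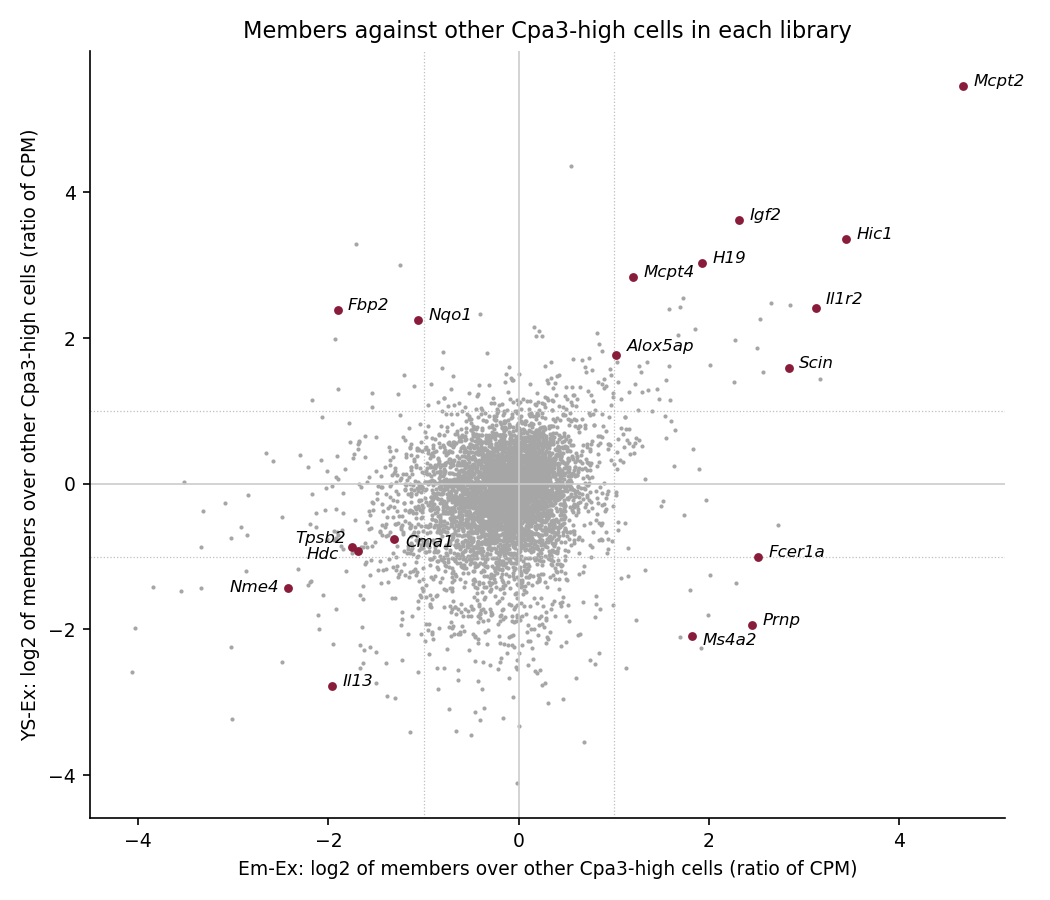
Log2 ratio of CPM in Mcpt1-high cells over other Cpa3-high cells in Em-Ex (horizontal) and YS-Ex (vertical), 1 point per gene with at least 10 CPM in 1 group in both libraries, without Mcpt1 and Cpa3, dotted lines at 2-fold and genes with 0 UMIs drawn at the bound of 3 counts. Mcpt2 stands far out at the upper right with Igf2, H19, Mcpt4, Scin and Il1r2 on the same side, whereas Fcer1a, Prnp and Ms4a2 lie higher in Em-Ex and lower in YS-Ex.

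Among the proteases, the second mucosal chymase went furthest with Mcpt1. Mcpt2 was at 7969 CPM in members against 313 CPM in the other Cpa3-high cells of Em-Ex, 25.5-fold higher (24.7 to 26.3), and at 7809 against 177 CPM in YS-Ex, 44.2-fold higher (42.1 to 46.5). It was found in 119 of 123 members of Em-Ex and in 31 of 31 of YS-Ex, against 44.8% and 22.7% of the other, more deeply sequenced Cpa3-high cells. Cells under the Cpa3 threshold, with a median of 16935 and 10227 UMIs, held a Mcpt2 UMI in 39.4% and 31.9% of cases, so the share in the other Cpa3-high cells was no higher than in cells with little Cpa3 in YS-Ex and the part of free RNA in it was not tested. Mcpt1 and Mcpt2 transcripts were 71.8% identical in GENCODE vM21 with a longest shared run of 49 bases, and how reads from such runs were assigned was not tested. The longest run shared by Mcpt1 and Mcpt4 had 46 bases, and by Mcpt2 and Mcpt4 33 bases.

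Mcpt4, a chymase of connective tissue mast cells, was also higher in the members. It was at 2193 against 955 CPM in Em-Ex, 2.30-fold higher (2.20 to 2.39), and at 5856 against 821 CPM in YS-Ex, 7.13-fold higher (6.80 to 7.48). Cma1 and Tpsb2 stood lower. Cma1, which encodes mouse mast cell protease 5, was at 7024 against 17364 CPM in Em-Ex, a ratio of 0.40 (0.40 to 0.41), and at 8999 against 15187 CPM in YS-Ex, a ratio of 0.59 (0.57 to 0.61). Tpsb2, a tryptase, was at 2255 against 7292 CPM in Em-Ex, a ratio of 0.31 (0.30 to 0.32), and at 4406 against 8378 CPM in YS-Ex, a ratio of 0.53 (0.50 to 0.55). Both were past 2-fold in Em-Ex and short of it in YS-Ex. The tryptase Tpsab1 had a ratio of 0.23 (0.18 to 0.29) in Em-Ex and 0.76 (0.49 to 1.12) in YS-Ex, and the membrane tryptase Tpsg1 0.40 and 1.09.

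By list, both mucosal chymases that entered were past 2-fold in both libraries, 1 of them by the choice of the cells. Of 6 connective tissue proteases that entered, leaving out Cpa3, which chose the cells, 1 was higher and 4 were lower in Em-Ex, with a median log2 ratio of -1.32, whereas in YS-Ex 2 were higher and none lower, with a median of -0.14. The medians over all genes were -0.10 in both libraries. The second higher gene of YS-Ex was Cma2, a chymase-like gene of the same cluster, at 60.4 against 17.1 CPM. Of 12 other granule proteases and inhibitors in Em-Ex none was higher and 3 were lower, and of 14 in YS-Ex 1 was higher and 2 were lower. Gzmb, the cytotoxic protease granzyme B, had a ratio of 1.05 in Em-Ex and 0.62 in YS-Ex. Mcpt8, a basophil protease, had ratios of 0.30 and 0.52, and Prss34, another basophil protease, had 1 UMI in the members of each library, with ratios of 0.06 (0.00 to 0.34) and 0.17 (0.00 to 0.93).

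Surface receptors gave the remaining markers. Clec4a2, an inhibitory C-type lectin receptor of myeloid cells, was at 116 CPM in Em-Ex members against 3.92 CPM in the other Cpa3-high cells, 29.5-fold higher (22.6 to 38.6). In YS-Ex it had 0 UMIs in members and 0.60 CPM in the others, and since the floor of 3 counts in these members, 9.54 CPM, lay above that level, no ratio is given. It was detected in 50 of 123 Em-Ex members, or 40.7% (31.9 to 49.9%), against 3.23% of the others, and in 0 of 31 YS-Ex members, which at this depth allows up to 11.2% of cells with a UMI and sets no limit on cells that express the gene, against 0.731% of the others. With each cell thinned to 3000 UMIs the Em-Ex shares were 20.3% and 1.40%, with 2.18% in the cells under the Cpa3 threshold.

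Il1r2, the decoy receptor that binds IL-1 without signalling, was higher in both libraries. It was at 88.0 against 10.1 CPM in Em-Ex, 8.69-fold higher (6.82 to 11.0), and at 22.3 against 4.17 CPM in YS-Ex, 5.34-fold higher (2.09 to 11.4), the latter from 7 UMIs in 5 cells. It was detected in 32.5% of members against 6.60% of the others in Em-Ex and in 16.1% against 3.60% in YS-Ex, and after thinning in 17.9% against 2.60% and 9.68% against 1.04%. None of the other genes of the IL-1 list passed 2-fold in either library among 8 that entered. Of 3 C-type lectins in Em-Ex, Clec4a2 alone was past 2-fold, and of 2 in YS-Ex none was.

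Integrins differed in both directions. Itga2b, the integrin chain CD41 against which the cells had been sorted, was at 95.1 against 19.9 CPM in Em-Ex, 4.79-fold higher (3.85 to 5.91), and at 38.2 against 14.6 CPM in YS-Ex, 2.62-fold higher (1.34 to 4.64). Itgae, the chain of the integrin that binds E-cadherin on epithelium, was at 13.5 against 0.69 CPM in Em-Ex, 19.6-fold higher (9.22 to 41.3), from 15 UMIs in 11 cells, and was listed at 0 in YS-Ex. Its partner chain Itgb7, the beta7 chain used for homing to the gut, had ratios of 1.53 and 1.30 and Itga4, another partner of that chain, 0.35 and 0.15. Of 12 integrins, 2 were higher and 3 lower in Em-Ex and 1 was higher and 2 lower in YS-Ex.

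Cd300a, an inhibitory receptor of mast cells, had ratios of 4.82 in Em-Ex and 3.92 in YS-Ex. Lair1, an inhibitory collagen receptor, had 5.80 and 4.79, in YS-Ex from 7 UMIs in 3 cells. Of 16 inhibitory receptors in Em-Ex 2 were higher and 2 lower, and of 15 in YS-Ex 2 were higher and 1 lower. Kit, a gate of the sort, was close between the groups, at 311 against 341 CPM in Em-Ex and 1164 against 991 CPM in YS-Ex.

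Hdc, which makes histamine from histidine, was at 846 against 2840 CPM in Em-Ex, a ratio of 0.30 (0.28 to 0.32), and at 1142 against 2077 CPM in YS-Ex, a ratio of 0.55 (0.49 to 0.61). Tph1, which starts serotonin synthesis, was on the other side of 1 with ratios of 1.67 and 1.22. Of 6 genes of histamine and serotonin synthesis and storage in Em-Ex none was higher and 3 were lower, and of 7 in YS-Ex 1 was higher and none lower.

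The lipid mediator pathway leaned upward. Alox5ap, which presents arachidonic acid to 5-lipoxygenase, was at 1545 against 759 CPM in Em-Ex, 2.04-fold higher (1.94 to 2.14), and at 1721 against 505 CPM in YS-Ex, 3.41-fold higher (3.12 to 3.71). Ltc4s, which makes leukotriene C4, was 2.39-fold higher (1.72 to 3.24) and 2.02-fold higher, in YS-Ex from 11 UMIs. Ptgs1, cyclooxygenase 1, was 1.79-fold higher (1.47 to 2.17) in Em-Ex and 3.79-fold higher (2.79 to 5.05) in YS-Ex. The 5-lipoxygenase gene Alox5 itself had ratios of 1.60 and 0.87. Of 9 genes of leukotriene and prostaglandin synthesis that entered in Em-Ex 3 were higher and none lower, and of 8 in YS-Ex 4 were higher and none lower, with median log2 ratios of 0.78 and 0.79.

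Genes of proteoglycan synthesis were mostly within 2-fold. Srgn, the granule proteoglycan core, had ratios of 0.77 and 0.67. Ndst2, which sulfates heparin in mast cells, was at 40.4 against 86.2 CPM in Em-Ex, a ratio of 0.47 (0.34 to 0.63), and at 63.6 against 144 CPM in YS-Ex, a ratio of 0.44 (0.27 to 0.69). Of 14 such genes in Em-Ex none was higher and 1 was lower, while 1 of the 16 in YS-Ex was higher and 3 were lower.

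The IgE receptor differed by library. Fcer1g, the shared signalling chain, was level between members and the other Cpa3-high cells, at 2961 against 2944 CPM in Em-Ex and 2872 against 2704 CPM in YS-Ex. Ms4a2, the beta chain, was 3.53-fold higher (3.04 to 4.09) in Em-Ex, at 188 against 53.1 CPM, but lower in YS-Ex, at 15.9 against 68.0 CPM with a ratio of 0.23 (0.08 to 0.55) from 5 UMIs. Fcer1a, the chain that binds IgE, was 5.73-fold higher (4.55 to 7.17) in Em-Ex, at 88.0 against 15.3 CPM, and had 0 UMIs against 19.1 CPM in YS-Ex. Of 25 genes of IgE receptor signalling in each library, 2 were higher and 1 lower in Em-Ex and 1 was higher and 4 were lower in YS-Ex. Rgs13, a brake on G protein signalling in mast cells, was higher in both, with ratios of 2.23 and 2.40, and Fyn, a kinase of the receptor's signalling, lower, with 0.48 and 0.31.

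Genes of the TGF-beta pathway were not higher as a group in Em-Ex, where none of 10 was 2-fold higher and 2 were lower. In YS-Ex 3 of 13 were higher and 2 lower, with a median log2 ratio of 0.30. Tgfbr1, the type I receptor, had ratios of 1.08 and 1.65. Runx3, a transcription factor of the pathway, had 1.24 in Em-Ex and 2.61 (2.07 to 3.24) in YS-Ex. Id1, a direct target in many cells, had 1 and 2 UMIs in the members, with ratios of 0.07 (0.00 to 0.39) and 0.37 (0.05 to 1.36).

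Few cytokine genes were higher in the members. Il13, a type 2 cytokine, was at 11.7 against 45.3 CPM in Em-Ex, a ratio of 0.26 (0.14 to 0.44), and had 0 UMIs in YS-Ex members against 65.5 CPM in the others. Of 17 cytokines in Em-Ex 1 was higher and 6 were lower, with a median log2 ratio of -0.70, and of 13 in YS-Ex none was higher and 4 were lower. Of 11 growth factor and cytokine receptors in Em-Ex none was higher and 3 were lower, and of 13 in YS-Ex none was higher and 2 were lower. Immediate early genes, a sign of handling as well as of activation, had none past 2-fold higher in either library and 3 of 19 and 3 of 18 past 2-fold lower, among them Nr4a2 with ratios of 0.23 and 0.25.

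Transcription factors and the cell cycle gave few calls in Em-Ex. Of 21 transcription factors none was higher and 1 lower there, and in YS-Ex 1 was higher and 4 were lower. Gata2, a regulator of mast cell genes, had ratios of 0.72 and 0.67. No S phase gene of 22 and no G2/M gene of 21 was past 2-fold in Em-Ex, whereas in YS-Ex 2 and 1 of 21 S phase genes were higher and lower and 6 of 21 G2/M genes were lower, with a median log2 ratio of -0.49. None of 5 Notch pathway genes passed 2-fold in Em-Ex, and 2 of 6 were lower in YS-Ex. Of the mast cell identity list, 3 of 23 were higher and 3 lower in Em-Ex and 2 of 24 were higher and 2 lower in YS-Ex.

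Many of the list counts in YS-Ex rested on few UMIs. When the interval of the ratio also had to leave out 1, no count of the lists above changed in Em-Ex. In YS-Ex the TGF-beta pathway went from 3 higher and 2 lower to 1 and 0, and the other granule proteases from 1 higher and 2 lower to 0 and 1. The lower genes went from 4 to 1 among transcription factors, from 4 to 2 in IgE receptor signalling, from 3 to 1 in proteoglycan synthesis, from 2 to 0 among growth factor and cytokine receptors, from 2 to 1 in the Notch pathway, from 1 to 0 among inhibitory receptors and from 6 to 4 among G2/M genes.

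Outside the mast cell lists, an imprinted pair was high in the members of both libraries. H19, a maternally expressed noncoding RNA at chr7:142575530-142578146, was at 2033 against 534 CPM in Em-Ex, 3.80-fold higher (3.64 to 3.98), and at 3951 against 483 CPM in YS-Ex, 8.18-fold higher (7.71 to 8.68). Igf2, the paternally expressed fetal growth factor that lies 72621 bases away, was at 87.1 against 17.5 CPM in Em-Ex, 4.98-fold higher (3.96 to 6.21), and at 1463 against 119 CPM in YS-Ex, 12.3-fold higher (11.1 to 13.5). Both RNAs were thus higher together, and much more Igf2 was counted in YS-Ex.

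Among the 15 genes with the highest ratio in both libraries were further genes of known roles. Scin, an actin-severing protein, was 7.14-fold higher (6.58 to 7.75) in Em-Ex and 3.02-fold higher (2.41 to 3.74) in YS-Ex. Atp1b1, a subunit of the sodium pump, had ratios of 3.18 and 4.14, Spint1, an inhibitor of serine proteases, 2.40 and 3.07, and Gngt2, a G protein gamma subunit, 2.10 and 2.24. Hnrnpll, a splicing regulator, had 2.05 and 3.17, Lpar6, a lysophosphatidic acid receptor, 2.64 and 1.99, and Abi3 1.96 and 2.11. Avil, an actin-binding relative of Scin, was chosen for naming after its values were seen and had ratios of 5.91 and 2.89.

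Some of the 15 genes with the lowest ratios have known roles. Slc7a5, a transporter of large amino acids, was at 37.7 against 188 CPM in Em-Ex, a ratio of 0.20 (0.14 to 0.27), and at 35.0 against 78.8 CPM in YS-Ex, a ratio of 0.44 (0.22 to 0.80). Nme4, a mitochondrial nucleoside diphosphate kinase, had ratios of 0.19 (0.12 to 0.28) and 0.37 (0.19 to 0.65), Slc31a2, a copper transporter, 0.40 and 0.45, Plin3, a lipid droplet coat protein, 0.50 and 0.36, and Eif4ebp1, a repressor of translation, 0.50 and 0.40. The chemokine receptor Ccr2 had 0.48 and 0.17, but 70.6% of its UMIs in YS-Ex members came from 1 cell. The globin Hbb-bt had 0.45 and 0.24, with 90.9% of the YS-Ex UMIs from 1 cell.

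The first promoter windows of these named genes were searched for the same motifs. TGATAA was in 3 of 9 matched windows of the higher genes and in 0 of 10 of the lower genes, CAGAC was in 4 and 3 and AGATAA in 1 and 1. Mcpt4, whose window had been seen before TGATAA was added, was among the 3. In the window of Rgs13, another of the 3, TGATAA began 221, 35 and 10 bases before the start. In that of Il1r2, a marker outside these higher genes, it began 86 bases before the start. These sets are too small to read a difference from.

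Some genes already differed below the Mcpt1 threshold. Mcpt2 in Em-Ex was at 223 CPM in the cells with no Mcpt1, 2181 CPM at 5 to under 20 Mcpt1 UMIs per 10000 and 12219 CPM at 100 or more, and in YS-Ex it was at 117, 4890 and 16872 CPM. Scin in Em-Ex was at 78.3, 345 and 911 CPM in the same ranges, H19 at 454, 1243 and 3036 CPM, and Ly6e, a surface protein of the Ly6 family that was named after its values were seen, at 366, 969 and 1976 CPM. In YS-Ex H19 was at 428, 1899 and 5505 CPM and Igf2 at 104, 735 and 2419 CPM. For these genes, cells just short of the threshold were already apart from those with no Mcpt1. Asb17 in Em-Ex changed less below the threshold, at 79.1 CPM (75.2 to 83.0) without Mcpt1, 69.7 CPM (53.10 to 89.97) at 5 to under 20 and 35.6 CPM (20.3 to 57.7) at 100 or more.

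Mcpt4 peaked in between. In Em-Ex it was at 936 CPM without Mcpt1, 2549 CPM at 20 to under 50, 2666 CPM at 50 to under 100 and 1611 CPM at 100 or more, and in YS-Ex it was at 707, 6105, 6002 and 5075 CPM. Cma1 was at 18031, 11253 and 3892 CPM in Em-Ex and at 15185, 12457 and 5847 CPM in YS-Ex with no Mcpt1, 5 to under 20 and 100 or more, but not in an even descent, since in YS-Ex it was at 17628 CPM at 1 to under 5 and at 9587 and 10375 CPM at 20 to under 50 and 50 to under 100. Tpsb2 was at 7761, 3464 and 1087 CPM in Em-Ex in the same 3 ranges, and Hdc at 3017, 1628 and 605 CPM. The top range held 52 cells in Em-Ex and 8 in YS-Ex.

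Clec4a2 belonged to the upper end of the scale. In Em-Ex it was at 3.18 CPM without Mcpt1, 18.9 CPM (10.8 to 30.7) at 5 to under 20, 29.1 CPM at 20 to under 50 and 193 CPM (155 to 239) at 100 or more. Il1r2 was at 8.96, 35.5 and 107 CPM in the ranges of 0, 5 to under 20 and 100 or more. Fcer1a was highest at 50 to under 100, with 184.5 CPM, against 11.0 CPM without Mcpt1 and 46.7 CPM at 100 or more.

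**Figure D3:**
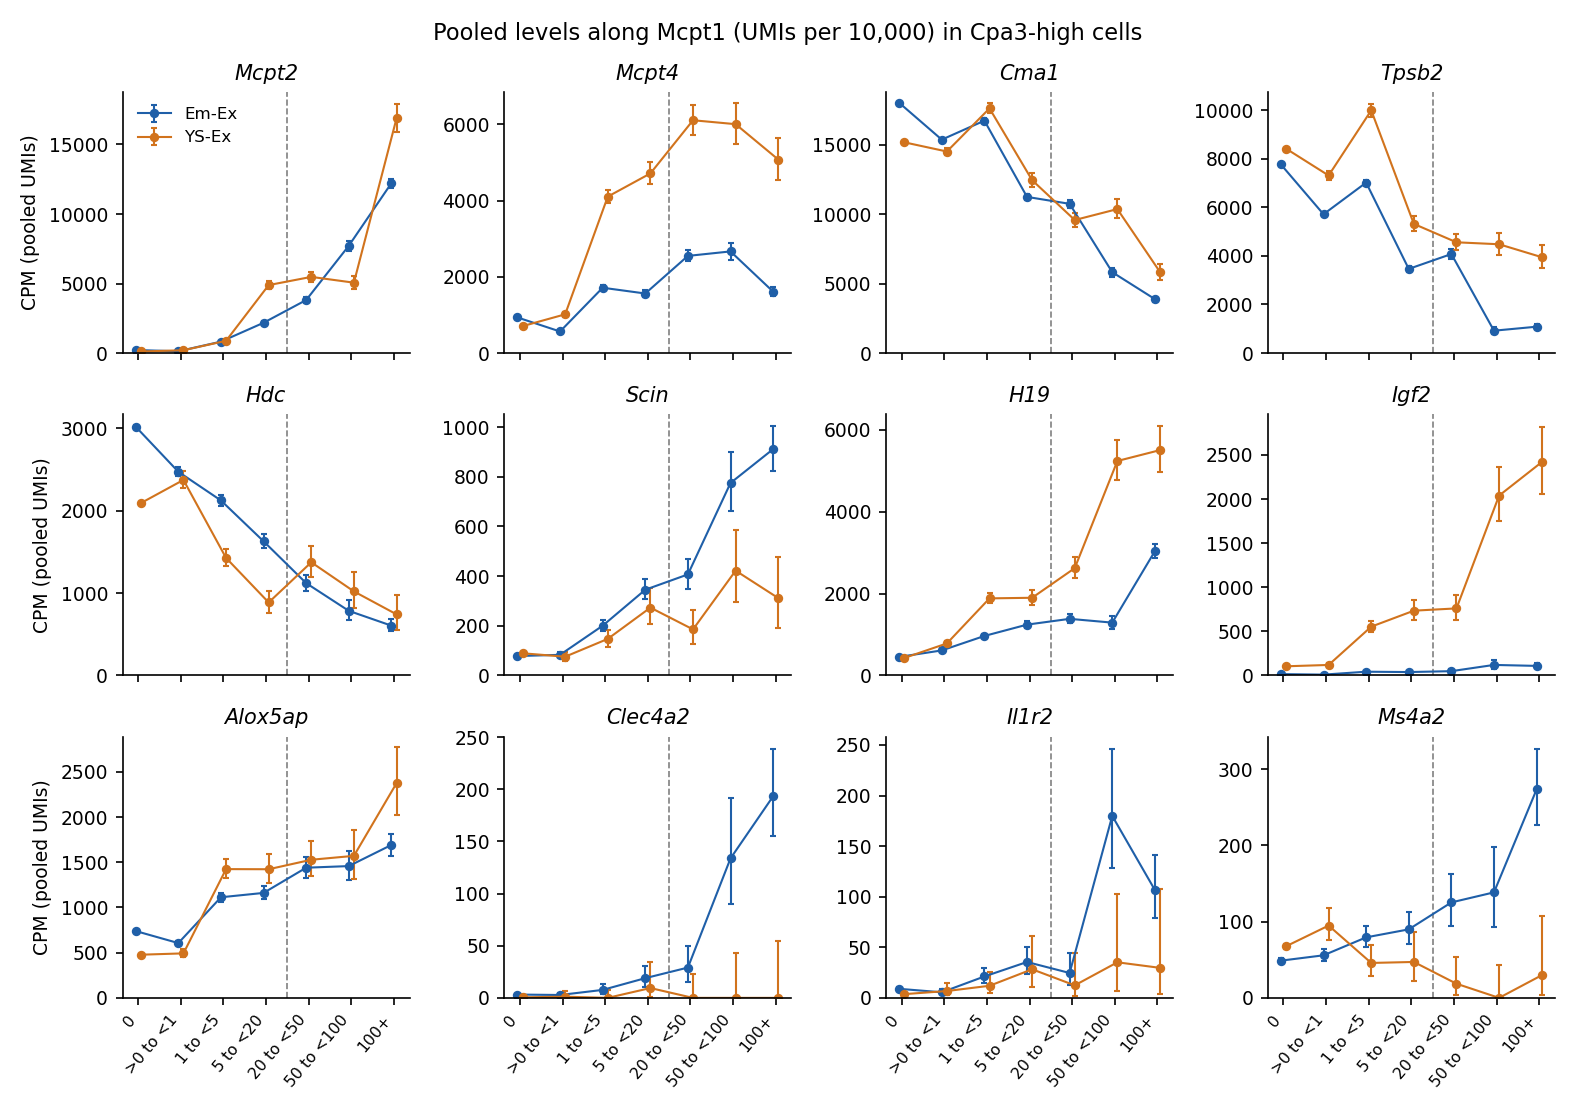
CPM (axes from 0) of 12 genes in Cpa3-high cells pooled by range of Mcpt1 UMIs per 10000, with exact Poisson bars, in Em-Ex and YS-Ex. Mcpt2, H19, Scin and Alox5ap are higher in the top range than in cells with no Mcpt1, Cma1, Tpsb2 and Hdc are lower, and Mcpt4 is highest between 20 and under 100 in both libraries.

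The members differed among themselves over a wide range. Mcpt1 ran from 20.1 through a median of 67.9 to 904 UMIs per 10000 in Em-Ex and from 23.6 through 59.5 to 372 in YS-Ex. Mcpt2 ran from 0 through 51.7 to 447 in Em-Ex and from 2.19 through 53.9 to 353 in YS-Ex. The Mcpt1 range was set by the threshold, and that of Mcpt2 overlapped widely between the libraries. Mcpt4 ran from 0 through 18.7 to 124 in Em-Ex and from 0 through 55.7 to 175 in YS-Ex. Tpsb2 had a median of 2.52 and a highest value of 200 in Em-Ex, against a median of 33.3 and a highest value of 150 in YS-Ex, so most Em-Ex members had little tryptase and a few had much.

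Other genes were counted in part of the cells, and at these depths a cell with 0 UMIs is not shown to lack the transcript. Scin ran from 0 through 6.18 to 28.1 UMIs per 10000 in Em-Ex and from 0 through 1.87 to 20.6 in YS-Ex. H19 was found in 109 of 123 Em-Ex and 30 of 31 YS-Ex members and Igf2 in 54 and 29, both together in 49 (39.8%) and 29 (93.5%). Mcpt2 and Mcpt4 were found in the same cell in 100 Em-Ex members (81.3%) and 29 YS-Ex members. Clec4a2 and Il1r2 shared 22 Em-Ex members (17.9%), 28 had Clec4a2 alone, 18 had Il1r2 alone and 55 (44.7%) had neither, at a median of 8022 UMIs per cell where a low transcript is often missed.

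**Figure D4:**
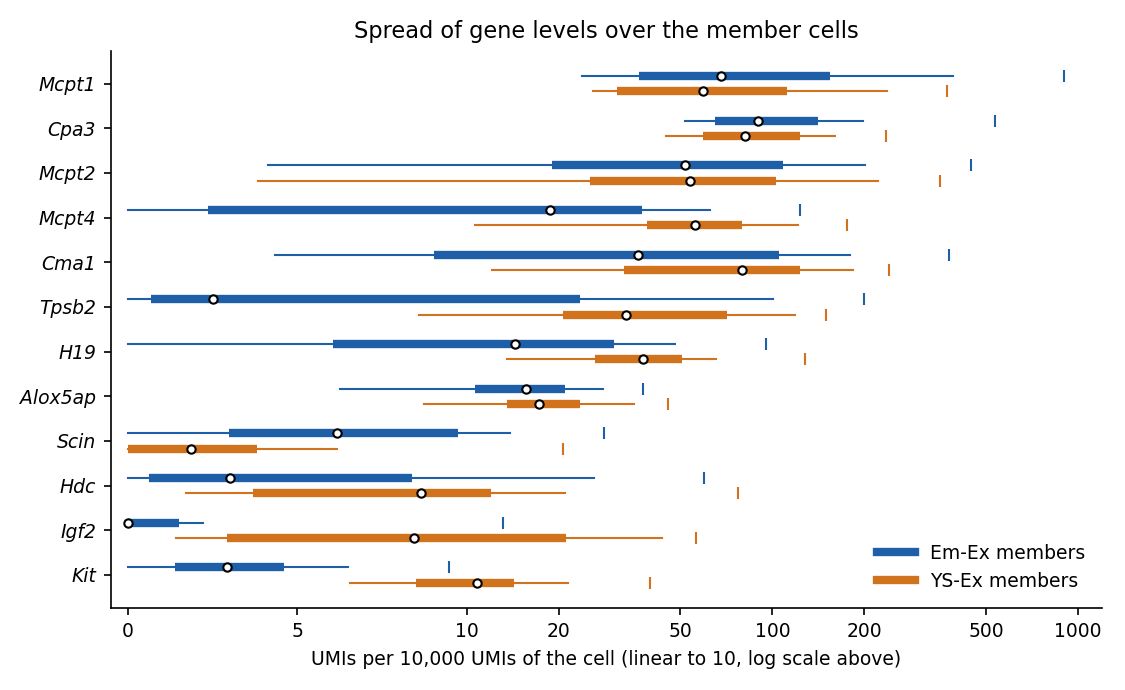
UMIs per 10000 in single Mcpt1-high cells (linear to 10, then log) for 12 genes in 123 Em-Ex and 31 YS-Ex cells, with a thin line from the 10th to the 90th percentile, a thick line over the middle quartiles, a circle at the median and a tick at the highest cell. Mcpt2 overlaps almost fully between the libraries, whereas the medians of Mcpt4, Tpsb2, H19 and Kit are higher in YS-Ex and that of Scin in Em-Ex.

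Ranks within the 123 Em-Ex members ran the same way as the ranges, as a description over cells of 1 library that share depth and source. Spearman's rho with Mcpt1 was 0.51 for Mcpt2, 0.49 for Ly6e, 0.47 for Scin, 0.44 for Clec4a2 and 0.41 for H19, and -0.50 for Cma1, -0.37 for Hdc, -0.30 for Tpsb2 and -0.21 for Mcpt4. It was -0.06 for UMIs per cell. Over the 31 YS-Ex members rho with Mcpt1 was 0.49 for H19, 0.34 for Igf2, 0.34 for Scin and 0.23 for Mcpt2. The negative values of Em-Ex were smaller in size there, with -0.0036 for Cma1, -0.11 for Hdc, -0.15 for Tpsb2 and -0.14 for Mcpt4. Whether they differ from those of Em-Ex was not tested. Mcpt2 and Mcpt4 were nearly unrelated in Em-Ex members, with a rho of 0.04, and weakly opposed in YS-Ex, with -0.21.

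Between libraries the members of Em-Ex were at least 2-fold above those of YS-Ex for 10.2% of 6713 genes and at least 2-fold below for 18.9%. The interval left out 1 for 285 of the 687 higher and 722 of the 1270 lower genes. Mcpt2 was close between the members, at 7969 and 7809 CPM, a ratio of Em-Ex over YS-Ex of 1.02 (0.98 to 1.07). Mcpt4 was 2.67-fold higher in YS-Ex members (2.51 to 2.84), whereas in the other Cpa3-high cells YS-Ex over Em-Ex was 0.86. H19 was 1.94-fold higher in YS-Ex members (1.81 to 2.08) against 0.90 in the other cells, and Scin 2.47-fold higher in Em-Ex members (1.97 to 3.11) against 1.04.

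Genes found mostly in Em-Ex members included the IgE receptor chains Fcer1a and Ms4a2. Prnp, the cellular prion protein, was at 259 CPM in Em-Ex members, in 63 of 123 cells, and had 0 UMIs in YS-Ex members, so it was at least 27.2-fold higher by the floor, against a ratio of 1.29 in the other Cpa3-high cells. It was found in 51.2% of members against 20.7% of the others in Em-Ex, and in 0 of 31 against 18.6% in YS-Ex. Clec4a2 was at least 12.1-fold higher. In the other Cpa3-high cells it leaned the same way, found in 67 of 2077 cells of Em-Ex and 14 of 1915 of YS-Ex. Fcer1a was at least 9.22-fold higher, with a ratio of 0.80 in the other cells. Ms4a2 was 11.8-fold higher (4.97 to 36.7), against 0.78 in the others, and was found in 70 of 123 and 4 of 31 members.

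Ltb4r1, a receptor for leukotriene B4, was at 89.8 against 9.54 CPM, 9.41-fold higher in Em-Ex members (3.13 to 46.4) and 0.98 in the other cells. Tnfrsf9 and Prelid2 were at 56.6 and 53.9 CPM in Em-Ex members against 3.18 CPM each in YS-Ex, where each rested on 1 UMI. Ccl1, a chemokine, was at 70.9 against 6.36 CPM, but 96.2% of its Em-Ex UMIs came from 1 cell.

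Of the 8 genes with the lowest ratio of Em-Ex over YS-Ex members, 7 leaned the same way in the other Cpa3-high cells. Igf2 was 16.8-fold higher in YS-Ex members (13.5 to 21.1) and 6.83-fold higher in the other Cpa3-high cells. Kit, a gate of the sort and not among these 8, was 3.75-fold higher in YS-Ex members (3.23 to 4.35) against 2.91 in the other Cpa3-high cells. Fbp2, a fructose bisphosphatase, was at 286 against 5.39 CPM, with 54.4% of the YS-Ex UMIs from 1 cell, and 2.72-fold higher in the other cells. Nqo1, an NADPH quinone reductase, was at 181 against 11.7 CPM, 15.5-fold higher (8.40 to 30.9), and 1.57-fold higher in the others. Pdgfa, a growth factor, was at 54.1 against 1.80 CPM and went the other way in the other cells, with 0.65. Dip2b, Susd6, Shoc2 and mt-Nd6 completed the 8 lowest ratios of Em-Ex over YS-Ex members, at 0.07, 0.09, 0.10 and 0.11, against 0.35, 0.26, 0.36 and 0.21 in the other cells.

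**Figure D5:**
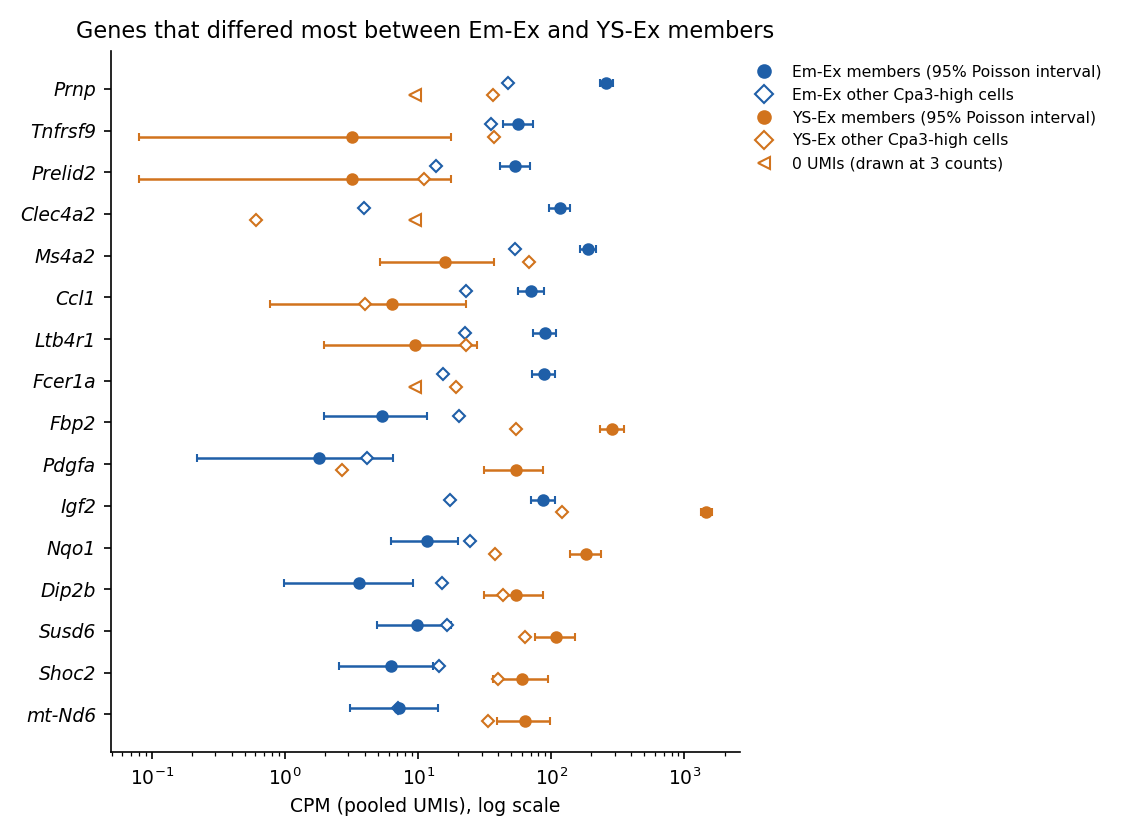
CPM (log axis) in Mcpt1-high cells of Em-Ex and YS-Ex with exact Poisson bars, and in the other Cpa3-high cells as open diamonds, for the 8 genes with the highest and the 8 with the lowest ratio between libraries, 0 UMIs drawn at 3 counts as open triangles. Prnp, Ms4a2, Fcer1a and Ltb4r1 differ between the members of the libraries while the diamonds nearly coincide. For Igf2, Clec4a2 and Ccl1 the diamonds stand apart in the same direction as the members.

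Markers of other cell types were low in the members, and their part in the results was not tested. Macrophage markers summed to 297 CPM in members against 261 CPM in the other Cpa3-high cells of Em-Ex and 270 against 128 CPM in YS-Ex, with Csf1r and Mrc1 at 0 in the members of both and 4 of 6 markers that entered 2-fold higher and 1 lower in YS-Ex (2 and 0 where the interval also left out 1), and none of 8 past 2-fold in Em-Ex. Basophil markers summed to 910 against 1395 CPM and 1034 against 1416 CPM. Megakaryocyte markers were at 101 against 42.1 CPM and 70.0 against 32.3 CPM, most of it Itga2b, with Gp9 and Vwf at 0. Erythroid markers were at 199 against 153 CPM and 92.2 against 240 CPM, with Car1 at 0. The other sums stayed low, with eosinophil markers at 8.08 and 12.7 CPM, neutrophil progenitor markers at 11.7 and 9.54, dendritic cell markers at 17.1 and 12.7, lymphoid markers at 60.1 and 35.0, endothelial markers at 63.7 and 60.4 and stromal markers at 6.28 and 3.18 CPM in Em-Ex and YS-Ex members.

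The concepti were pooled, and Y-linked and Xist transcripts give the sex of a cell only as far as its depth allows. Cells with Y-linked and no Xist UMIs were 11 of 116 Em-Ex members that could be called, or 9.48% (4.83 to 16.3%), against 18.6% of the other Cpa3-high cells, and 9 of 28 YS-Ex members, or 32.1% (15.9 to 52.4%), against 34.2%. After thinning the shares were 6.86% against 11.0% in Em-Ex and 28.0% against 20.6% in YS-Ex. Each share thus fell with depth and the order in YS-Ex turned. Members had fewer UMIs per cell than the others, and the part of depth in these gaps was not tested. Both kinds of cell were thus among the members of both libraries, and 2 members in each library held UMIs of both kinds.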

How the data were processed

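The authors deposited 1 table of UMI counts per gene and cell barcode (11691 genes, 3504 Em-Ex and 3037 YS-Ex barcodes). The submitters' processing notes name bcl2fastq 2.19.1.403, Cell Ranger 2.0.1 and the build mm10. Library and tissue came from the barcode names, and 0 barcode columns were unmapped. Within a library no gene had UMIs in fewer than 30 barcodes unless it was listed at 0 throughout (241 genes in Em-Ex, 725 in YS-Ex), and such genes got no ratio. Doublets were not removed. The deposited counts were not normalized.

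From the counts, cells were filtered, grouped by the thresholds, and their UMIs summed per group and scaled to 1000000 UMIs (CPM). Levels got exact Poisson intervals, ratios exact conditional intervals and shares Clopper-Pearson intervals, all at 95%. A gene entered at 10 CPM in 1 group and was called at 2-fold. A group at 0 got the bound of 3 counts over the group. For shares of cells with a UMI, each cell was also thinned to 3000 UMIs. The code was tested on simulated data. Python 3.11.15, numpy 2.4.6, pandas 2.3.3, scipy 1.17.1 and matplotlib 3.10.9 were used.

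Named genes were the 15 highest and 15 lowest by the ratio nearest 1 of both libraries, with the same direction in both and 50 CPM in 1 group in both, without Mcpt1 and Cpa3, then the 8 highest and 8 lowest between the members of the libraries, the markers and members of the gene lists. The members, the thresholds and the 32 lists were chosen with earlier results of these data known. Protein sequences were not used here. Promoter windows and gene positions came from RefSeq GRCm38.p6, the release of the same assembly as mm10.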

Additional observations from a re-analysis of the deposited data

Results flagged for a closer look

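A few genes stood past 2-fold on opposite sides in the 2 libraries when Mcpt1-high cells were set against the other Cpa3-high cells. None of these differences was tested, since each library is 1 sample. Fcer1a was 5.73-fold higher in Em-Ex, and in YS-Ex its ratio was at most 0.50 by the floor of 3 counts. Prnp was 5.48-fold higher in Em-Ex and at most 0.260 in YS-Ex. Ms4a2 had ratios of 3.53 and 0.234, the latter from 5 UMIs. The globin Hba-a1 had 4.86 and 0.388, with 57.1% of its YS-Ex UMIs from 1 cell. In the opposite sense Nqo1 had 0.480 in Em-Ex and 4.76 in YS-Ex, and Fbp2 0.267 and 5.23, with 54.4% of the Fbp2 UMIs in YS-Ex from 1 cell.

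Mcpt1 at or above the threshold was also found outside the Cpa3-high cells, in 45 Em-Ex and 7 YS-Ex cells, which no comparison used. Their Cpa3 ran from 4.54 to 39.6 and from 6.47 to 28.1 UMIs per 10000.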

How the results depend on the processing

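No paired analysis was possible because there was 1 library per condition. Gene ratios were recomputed for the named genes and other picked genes only, up to 142 in each setting, and the same ratios recur over the settings. Many of these genes were named for the size and direction of their ratios, so a kept direction was likely beforehand. Of 1956 such ratios over all alternatives, 1929 kept their direction, and of 1567 past 2-fold 1565 did. Of the 1956, 250 left their counting interval, among them 46 of 141 at a Mcpt1 threshold of 50 and 46 of 139 after thinning. Past 2-fold, the exceptions were both Ccl1 between the members of the libraries, with a log2 ratio of -1.03 at a Cpa3 threshold of 80 and -0.28 without the top cell, from which most of its UMIs came. Em-Ex held the larger share of members at each threshold tried, namely 6.95% in Em-Ex at a Mcpt1 threshold of 10, 3.41% against 0.874% at 50, and 4.59% against 0.996% at a Cpa3 threshold of 80. With cells thinned to 3000 UMIs, Clec4a2 was found in 20.3% and Il1r2 in 17.9% of Em-Ex members.

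Counts of genes depended on the settings. In the order of higher and lower genes in Em-Ex, in YS-Ex and in both libraries, and of Em-Ex over YS-Ex members, the 1.5-fold call gave 358, 1020, 772, 1574, 101, 339, 1417 and 2006. Thinning gave 296, 681, 1099, 1515, 69, 198, 1440 and 2375. A minimum of 50 CPM gave 46, 59, 54, 97, 13, 15, 159 and 299, and no minimum gave 542, 2024, 664, 2709, 97, 704, 1985 and 2121. For the other settings those counts are given that moved by over 1.5 times. A Mcpt1 threshold of 50 gave 221 higher in Em-Ex, 598 higher and 1461 lower in YS-Ex, 62 and 186 in both, and 1313 higher between members. A Cpa3 threshold of 80 gave 212, 561 and 1411, 158 lower in both, and 1177. Cells with 8000 to 16000 UMIs gave 244, 692 and 1336, 141 lower in both, and 1222. As alternatives chosen after seeing the data, a counting interval that left out 1 gave 159 and 265 in YS-Ex, 44 lower in both, and 285 and 722 between members, and leaving out the top cell of each gene gave 585 lower in Em-Ex, 110 and 1604 in YS-Ex, 230 lower in both, and 1074 higher between members. Fewer cells or UMIs enter under several of these settings, and the cause of each shift was not tested.

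The 31 YS-Ex members limit what can be seen there, since 3 counts equal 9.54 CPM, which is the limit for a gene with 0 UMIs, and ratios that rest on 1 or 2 UMIs are wide. Without replicate libraries the spread between cultures is unknown.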
